A study of Drosophila melanogaster with 19 samples.

Results

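Early spermatocyte cysts (EC) of the *Drosophila melanogaster* testis were compared with 16-cell spermatogonial cysts (S16), gene by gene. A gene entered the comparison if it had a value of at least 1 RPKM (reads scaled to gene length and library size) in at least 2 of the 9 stages sequenced, which held for 11814 of the 12810 genes in the table. Inside that comparison, genes that were already on in S16 (8 RPKM or more) but under 1 in 4-cell (S4) and 8-cell (S8) spermatogonia were separated from genes that were first on in EC (8 or more in EC and under 1 in S4, S8 and S16). The first class held 67 genes, 65 of which passed the filter on low values, and the second held 812 genes, all of which passed it. The values of S4, S8, S16 and, for the second class, EC chose these members, so those values are given as a description.

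Each library came from single cysts picked by needle out of torn testes, after which mRNA was copied from poly-dT primers and amplified. The labels name 1 library of 16-cell spermatogonia, 3 of early spermatocytes and, of the stages used beside them, 2 each of 4-cell spermatogonia, 8-cell spermatogonia, gonialblasts (GB) and niche. Late spermatocytes were sequenced as LC1 (3 libraries) and LC2 (2 libraries), and 2 libraries came from arrested spermatocytes of *always early* (*aly*) mutants. Strain, genotype and age of the other flies are not given in the labels, which also write germline stem cell as the cell type of every sample, whatever its stage. The deposited table gave 1 mean value per stage. Whole reads per library, worked back from the means, are lettered a, b and c by library size, with no tie to a labelled replicate. No test is given, because S16 had a single library and over 5% of the calls of the planned limma fit were false in simulated libraries. "Higher" and "lower" in a count mean at least 4-fold apart in log2(RPKM + 1).

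In fly spermatogenesis a stem cell daughter divides by mitosis with incomplete cytokinesis, so that the cyst ends as interconnected spermatogonia wrapped by somatic cyst cells. The cyst then passes a last replication, stops dividing and becomes a cyst of spermatocytes, which grow through a long meiotic prophase and transcribe most of what spermatids will need. That transcription depends on the meiotic arrest genes, whose products form a testis version of a MuvB-type complex (tMAC, with *aly*) and testis versions of TAFs, the subunits of the general factor TFIID (with *can*), while *bam* drives the exit from the mitotic divisions.

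S16 was the shallowest library, with 810781 recovered reads, and the EC libraries held 1852774 (a), 1498749 (b) and 1283226 (c). For a gene 1 kb long, 3 reads amount to 3.22 RPKM in S16 and to 1.85, 2.32 and 2.78 in EC a, b and c. That floor allows for counting error alone, and PCR copies of 1 molecule cannot be told from separate molecules here. The median gene stood at 2.41 RPKM in S16 and 13.5 in EC. Values stopped short of 1 read per base in each library, a limit of 1075 RPKM in S16 and 617, 772 and 928 in EC a, b and c. In single cysts, fewer cells and less RNA per cell cannot be told apart.

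The 3 markers of the spermatocyte programme were high in every EC library and differed among themselves in S16. *Rbp4* (FBgn0010258, 3R:13654556-13656394 on BDGP6.54, protein-coding), an RNA-binding protein of spermatocytes that acts on meiotic translation, stood at 0 and 18.4 RPKM in the S4 libraries, 0 and 0.860 in S8, 28.4 in S16 (40 reads) and 377, 402 and 377 in EC a, b and c. All 3 EC libraries lay far above S16, by 3.72 on the log2(RPKM + 1) scale for the stage values. Its S4 value of 9.19 kept it out of the class on in S16. *aly* (FBgn0004372, 3L:3024129-3026521, protein-coding) had no read in any S4, S8 or S16 library and stood at 138, 109 and 63.0 in EC, and the EC mean was at least 72.6-fold above a floor of 3 reads in S16. *can* (FBgn0011569, 3L:10263909-10267111, protein-coding) likewise had no read in the 5 spermatogonial libraries and stood at 125, 92.7 and 23.2 in EC, with a mean at least 73.8-fold above that floor. By these markers the S16 cyst held RNA of *Rbp4* and none detected of *aly* or *can*.

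**Figure D1:**
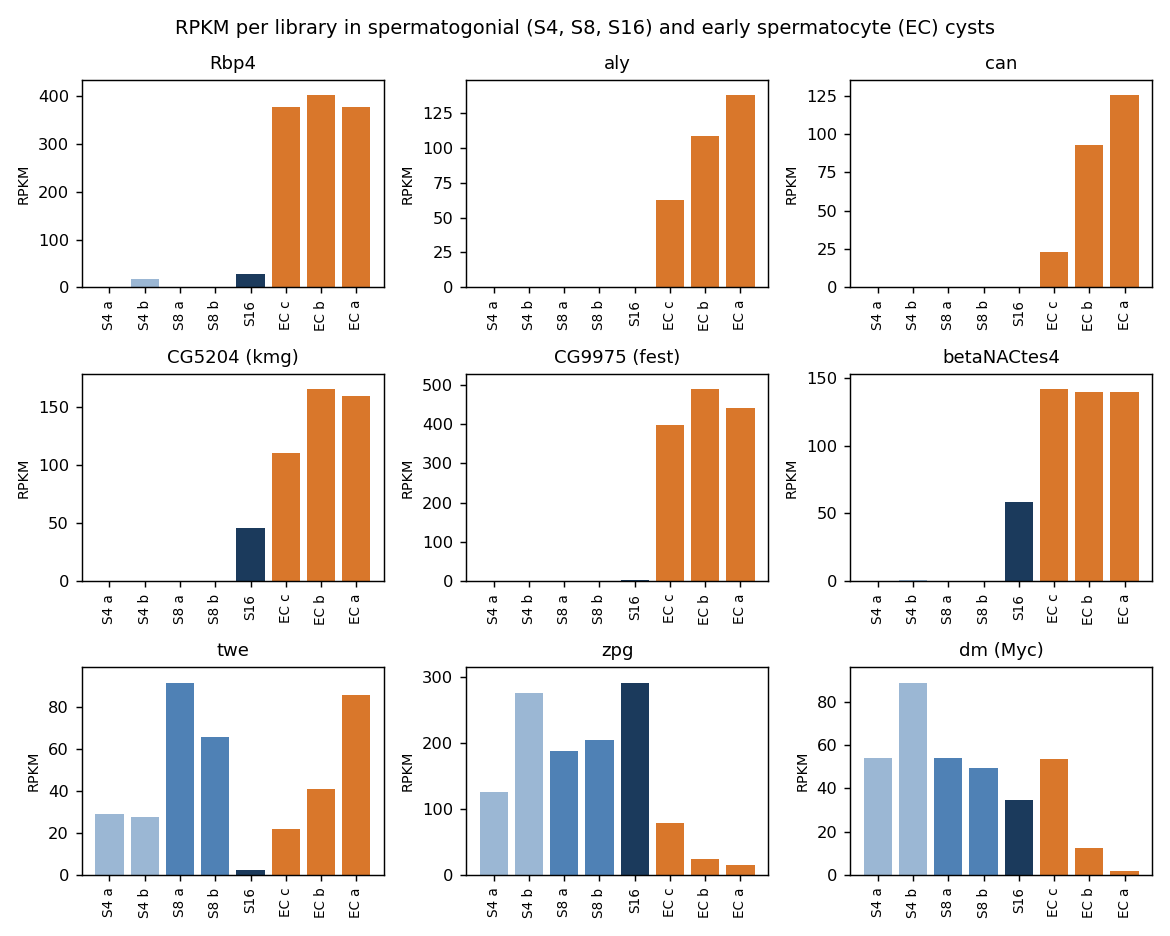
RPKM per library (y axis, linear from 0) of 9 genes in the S4, S8, S16 and EC libraries, 1 bar per library. *Rbp4*, *CG5204* (kmg) and *betaNACtes4* have a bar in S16 before the EC bars, *aly* and *can* have none, *twe* is low in S16 alone, and *zpg* and *dm* are lower in EC a than in EC c.

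Across all genes, 2837 were higher in EC, which is 24% of those compared, and 423 were lower, which is 3.58%. Of the 2837, 1773 (62.5%, beside 38.6% of all genes compared) had no S16 read, and 2029 stood at 8 or more in EC. With no S16 read, low EC values sufficed for a gene to count as higher, as in *CG3708* (0 and 3.01). Among the 4559 genes compared with no S16 read, 997 stood in EC at least 4-fold above the floor of 3 S16 reads at their length. The median gene differed by 0.69 on the log2 scale. All 3 EC libraries lay above S16 in 5585 genes (47.3%) and below it in 2664 (22.5%). This split rests on the scaling: after quantile scaling of the stage columns, which moved the median by -0.70, 1317 genes were higher and 1018 lower, so that 56.4% of the differences pointed to EC in place of 87.0%. Scaling to total recovered reads moved it by -0.24 and gave 2408 higher and 683 lower. The 1317 were all among the 2837, and 383 of the 423 lower genes stayed lower.

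**Figure D2:**
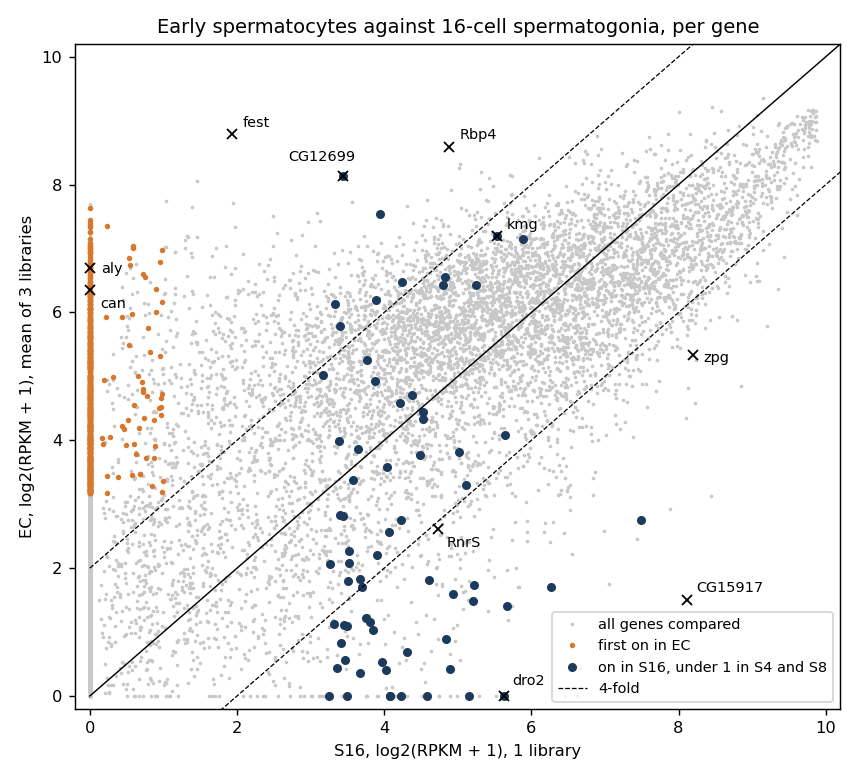
Each dot is a gene, with S16 on the x axis and the mean of the 3 EC libraries on the y axis, both in log2(RPKM + 1). The 812 genes first on in EC line the left edge, the 67 genes on in S16 spread from well above to well below the diagonal, and dashed lines mark 4-fold.

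The genes higher in EC differed in their earlier values. In 1459 of the 2837 (51.4%) both S4 and S8 were under 1 RPKM, beside 30.8% of all genes compared. Another 801 (28.2%) stood at 8 or more in S4 or S8, beside 55.2% of all genes compared. The Cdc25 phosphatase *twe*, which drives the meiotic divisions, stood at 29.1 and 27.6 in S4, 91.4 and 65.8 in S8, 2.26 in S16 (5 reads) and 85.4, 41.0 and 21.9 in EC. The cyclin *CycB3* stood at 54.3 and 25.7 in S4, 64.1 and 41.7 in S8, 1.27 in S16 (3 reads) and 60.9, 52.8 and 36.5 in EC. In these genes the EC libraries overlapped with S4 or S8, and the S16 library stood apart. The helicase *spn-E* of the piRNA pathway (0.461 in S16, 34.3 in EC, 40.8 in S8) and its partner *tej* (3.32, 37.4 and 97.6) were also low in S16 and higher in S8 and EC. Such differences rest on 1 library of low depth.

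Most of the meiotic arrest genes were higher in EC. Of 9 tMAC subunits 7 were higher and 0 lower, with a median difference of 3.66 beside 0.69 over all genes, and 5 were higher after quantile scaling. Over all genes compared 24% were higher and 3.58% lower, so that 0 lower in a short list lay near that share. *wuc*, a tMAC subunit, had no S16 read and stood at 213, 164 and 79.1 in EC, with a mean at least 33.7-fold above the floor. *comr*, another, was already at 7.01 RPKM in S16 (13 reads, none in S4 or S8) and stood at 63.8, 50.7 and 36.3 in EC. *mip40* and *Caf1*, which also serve general chromatin complexes, differed by -0.23 and 0.24 and were at 137 or more in S4, S8 and S16.

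Of 8 testis TAFs and bromodomain partners 7 were higher and 0 lower, beside 24% and 3.58% of all genes compared, with a median of 6.56. *nht*, the testis TAF4, stood at 0 in S16 and 227, 228 and 153 in EC, with a mean at least 59.6-fold above the floor, although S4 and S8 held 5.16 and 2.75. *CG13597* (tbrd-1), a testis bromodomain protein, had no read in S4, S8 or S16 and stood at 222, 183 and 118 in EC, with a mean at least 88.6-fold above the floor. *sa*, the testis TAF8, stood at 2.16 in S16 (2 reads) and 201, 124 and 27.1 in EC. The exception was *Taf12L*, the testis TAF12, which was high throughout (201 in S4, 114 in S8, 336 in S16 and 299 in EC).

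Of 12 genes of meiotic entry and its translational control 8 were higher and 0 lower, beside 24% and 3.58% of all genes compared, with a median of 3.83. *CG9975* (fest), which acts with *Rbp4* in the translational control of cyclin B, stood at 2.82 in S16 (8 reads) and 441, 489 and 397 in EC, a difference of 6.86. *CG17098* (dbf) had no read in S4, S8 or S16 and stood at 197, 135 and 64.1 in EC. *bol*, the boule translational regulator, stood at 0 in S16 and 71.9, 80.6 and 12.3 in EC, after 5.22 and 2.84 in S4 and S8. *eIF4G2*, the testis initiation factor, was at 46.3 to 51.5 from S4 to S16 and 284 in EC. *CycB* was low on both sides, at 4.80 in S16 and 8.43 in EC, and stood at 155 in LC1.

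Genes of the sperm were well represented, beside 24% higher and 3.58% lower over all genes compared. Of 29 spermatid and sperm genes 24 were higher and 0 lower, with a median of 5.64. *ocn*, a sperm protein, had no S16 read and stood at 279, 219 and 97.7 in EC, with a mean at least 38.6-fold above the floor. *Mst77F*, which compacts sperm chromatin, stood at 0 in S16 and 101, 205 and 41.8 in EC, and the sperm leucyl aminopeptidase *S-Lap1* at 0.507 (1 read) and 189, 144 and 59.9. The *janA*, *janB* and *gdl* genes were already at 442, 62.7 and 36.8 in S16 and within 4-fold in EC. *fzo*, the mitofusin of spermatids, was at 0 in S16, 1.38 in EC and 217 in LC2. Of 12 cup and comet genes, known for transcripts that appear in spermatids, 10 were higher and 0 lower, with a median of 4.20, and 6 were higher after quantile scaling. *soti* stood at 41.2, 65.7 and 9.86 in EC, and *t-cup* at 0.859, 5.38 and 0. Reads of near-identical copies (the *Mst84D*, *S-Lap* and *betaNACtes* genes) could be split by the counting, which is not described in the sources used here.

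Testis paralogues of housekeeping complexes had medians above that of all genes, and their general partners below it, although the general proteasome lay at the median of all genes after quantile scaling (0.04 beside -0.005). Over all genes compared 24% were higher and 3.58% lower. Of 8 testis respiratory chain paralogues 6 were higher, with a median of 5.36, and of 13 general genes 0 were higher and 1 lower, with a median of -1.32. *CG5389* (ATPsynbetaL), a testis ATP synthase subunit, stood at 1.06 in S16 (2 reads) and 288, 222 and 132 in EC. The general cytochrome c gene *Cyt-c-p* stood at 278 in S16 and 31.9, 58.4 and 123 in EC, and its testis counterpart *Cyt-c-d* at 1.24 and 173, 137 and 55.5. The lower gene was *CG4769* (Cyt-c1), at 181 in S16 and 12.8, 17.0 and 55.4 in EC. Of 14 testis proteasome paralogues 9 were higher, with a median of 2.92 (6 after quantile scaling), led by *Rpt6R* (0 in S16 and 204, 181 and 90.5 in EC). Of 11 general proteasome genes 0 were higher and 0 lower, with a median of -0.55. *Rpn12*, a regulatory particle subunit, stood at 483 in S16 and 142, 176 and 291 in EC, while its testis counterpart *Rpn12R* stood at 0 and 177, 130 and 70.7. Quantile scaling left the respiratory median at -0.42. The general respiratory genes had a median of 547 RPKM in S16, where the limit of 1 read per base is 1075, and the part of that limit in their difference was not tested.

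**Figure D3:**
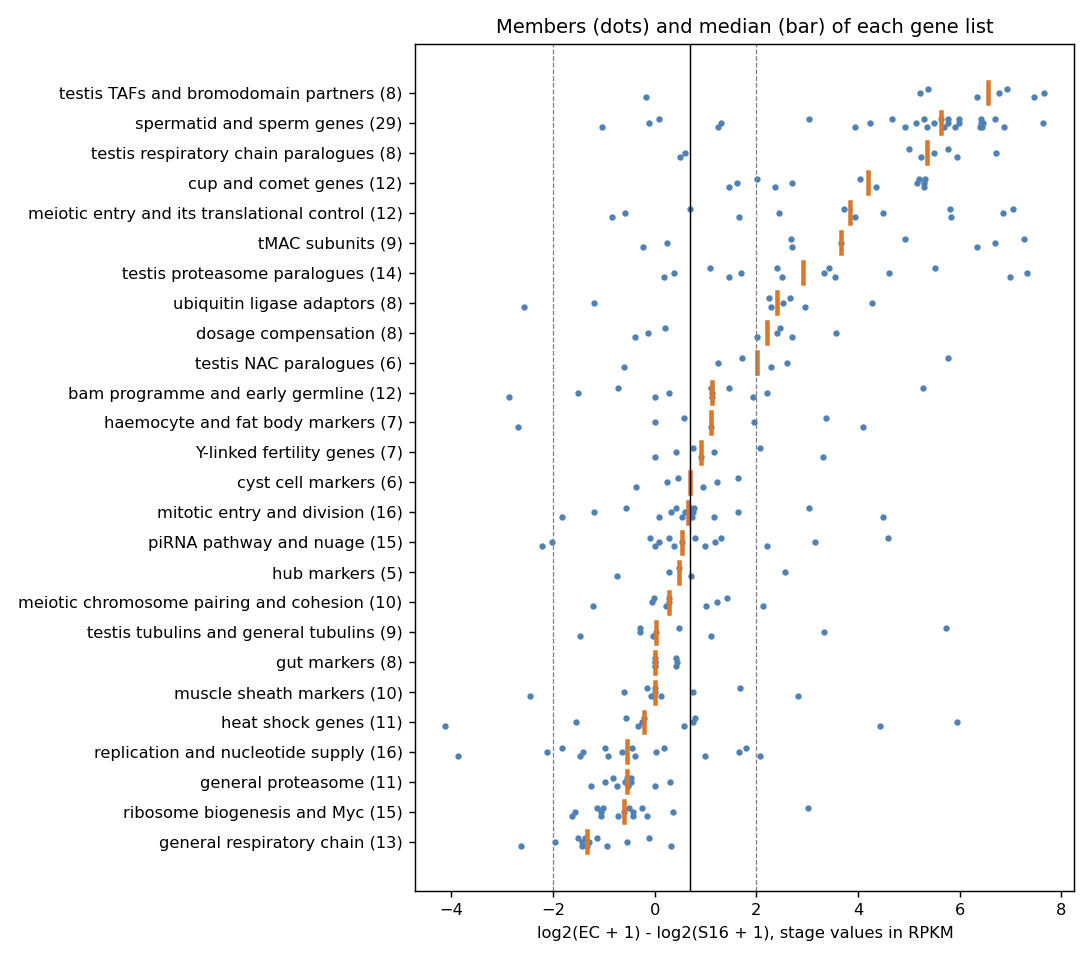
Difference of log2(RPKM + 1), EC minus S16 (x axis), for each member (dot) of 26 gene lists, with the list's median (bar) and the number of members compared in brackets. The vertical line is the median of all genes, 0.69, and dashed lines mark 4-fold; testis TAFs lie at the top with a median of 6.56 and the general respiratory chain at the bottom with -1.32.

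Smaller germline groups had medians of at most 2.40 (ubiquitin ligase adaptors), under those of the tMAC, TAF, meiotic entry, sperm and testis paralogue lists above. The shares over all genes compared were 24% higher and 3.58% lower. Of 6 testis NAC paralogues, which are relatives of a ribosome-bound chaperone, 3 were higher and 0 lower, with a median of 2.01, and 1 was higher after quantile scaling. Of 8 dosage compensation genes 5 were higher, with a median of 2.22, and 2 after quantile scaling. The helicase *mle* stood at 13.3 in S16 and 92.5 in EC, and *msl-2* at 0.838 (3 reads) and 25.8, 23.7 and 12.5. The RNA *roX2*, the non-coding partner of that complex, was at 0 in S16 and 0.149 in EC. Of 8 adaptor genes of ubiquitin ligases 6 were higher, among them *skpD* (1.63 in S16, 49.9 in EC), and 1 was lower, *skpE*, at 693 in S16 and 93.0, 110 and 144 in EC, while quantile scaling left 1 higher and 0 lower. Of 9 tubulins 2 were higher: *betaTub85D*, the testis beta-tubulin, stood at 1.75 in S16 (3 reads) and 130, 255 and 47.4 in EC, and *gammaTub37C* at 0 and 9.01. Of 7 Y-linked fertility genes 2 were higher, *ARY* (0 and 8.97) and *Ory* (0 and 3.21, all of it from EC b at 9.63). The shares of tubulins (22.2%) and of Y-linked genes (28.6%) that were higher lay near that of all genes. The axonemal dynein genes *kl-3* (0.130 and 0.902) and *kl-5* (0 and 1.24) stood near 0 in both.

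Most of the replication and mitosis genes did not separate S16 from EC by 4-fold, nor did 8554 of the 11814 genes compared. The shares over all genes compared were 24% higher and 3.58% lower, with a median of 0.69. Of 16 replication genes 1 was higher and 2 were lower, with a median of -0.54, and 4 were lower after quantile scaling. The lower genes were *DNApol-alpha50* (Prim1), the primase subunit, at 29.6 in S16 and 0, 1.48 and 1.78 in EC, and *RnrS*, a ribonucleotide reductase subunit, at 25.5 in S16 and 5.63, 4.70 and 5.08 in EC. Both had stood far higher in S8, at 100 and 254. The helicase subunit *Mcm7* stood at 161 in S8, 19.7 in S16 and 9.29, 17.3 and 16.2 in EC, so that its EC libraries lay close to S16 and well under S8. Of 16 mitosis genes 2 were higher (*CycB3* and the kinesin *Klp61F*, at 8.28 in S16 and 75.2 in EC) and 0 lower, with a median of 0.65. *stg*, the mitotic Cdc25 phosphatase, was at 0 in S16 and at 0, 0 and 2.13 in EC, after 74.9 in S8.

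Of 12 genes of the *bam* programme and early germline 2 were higher and 1 lower, with a median of 1.12, which was -0.40 after quantile scaling. For this and the following lists, the shares over all genes compared were 24% higher and 3.58% lower. *zpg*, the germline gap junction innexin, stood at 291 in S16 (419 reads) and 14.4, 24.5 and 79.2 in EC, a difference of -2.86. *bam* stood at 110 in S16 and 40.1, 35.1 and 38.1 in EC, a difference of -1.51 with all EC libraries below S16 but within 4-fold. *mei-P26*, a partner of *bam*, stood at 1.02 in S16 (5 reads) and 85.6, 88.6 and 59.3 in EC, and the helicase *vas* at 27.2 and 74.9, 138 and 173. Of 15 piRNA pathway genes 3 were higher and 2 lower, and 1 was higher after quantile scaling. The lower ones were *zuc*, the nuclease that makes piRNA ends (51.5 in S16, 10.3 in EC), and *cuff*, a piRNA cluster protein (86.3 and 20.6). Of 10 genes of meiotic pairing and cohesion 1 was higher, the shugoshin *mei-S332* (7.57 and 36.5), and 0 were lower. Of 15 ribosome biogenesis genes with *dm* 1 was higher, the RNA helicase *bel* (28.9 and 240), and 0 were lower, with a median of -0.61.

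The largest differences toward S16 were a mixed group. *mir-33* (99 bases, 9 reads in S16), *CG14302* (86.5 in S16, 21 reads) and the antifungal peptide relative *dro2* (48.3, 15 reads) had no EC read. Nor did *CR43701* (3 S16 reads) and 3 snoRNAs (3, 3 and 4 S16 reads), whose differences rest on those few reads. *CG15917* stood at 276 in S16 and 1.38, 0 and 4.15 in EC, *CG9486* at 100 (80 reads) and 0.361 for the EC stage, and the secreted peptide gene *Nplp2* at 171 (73 reads) and 8.08, 3.37 and 2.03. *Hsp22*, a mitochondrial small heat shock protein, stood at 55.4 (98 reads) and 3.25, 2.03 and 1.46. Genes under 300 bases made up 43 of the 423 lower genes beside 214 of the 11814 compared, and snoRNAs 5.69% of the annotated lower genes beside 0.842% of all annotated genes compared. In 335 of the 423 (79.2%, beside 55.2% of all genes) S4 or S8 also stood at 8 or more, as for *Nplp2* (419 in S4 and 261 in S8).

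The 67 genes on in S16 and off in S4 and S8 parted in EC, and over all genes compared 46.7% stood at 8 or more in S16 and 60.2% in EC. At the EC stage value 26 stood at 8 or more, 24 between 1 and 8, and 17 under 1, of which 8 had no read in any EC library. Over the 65 that passed the filter, 6 were higher in EC, 28 lower and 31 within 4-fold, with a median difference of -1.71. All 3 EC libraries lay above S16 in 10 of the 67 and below it in 43. Among all genes compared, 24% were higher and 3.58% lower, and all 3 EC libraries lay above S16 in 47.3% and below it in 22.5%. A high value in the single S16 library chose these members, so their differences from it are a description only. S16 reads behind the members ran from 2 to 100, with a median of 16. The last genes inside the threshold were *CalpC* at 8.01 and *CG8028* at 8.52 in S16, and the first outside were *l(3)mbn* at 7.88 and *CG32829* at 7.62.

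The members that were on in S16 and stayed at 8 or more in EC included known germline genes. *CG5204* (kmg; FBgn0032473, 2L:13160527-13163153, protein-coding), a zinc finger protein that keeps spermatocytes from expressing genes of other tissues, had no read in 4 S4 and S8 libraries, stood at 45.5 in S16 (100 reads) and at 159, 166 and 110 in EC. It remained at 75.7 in LC1, 40.1 in LC2 and 117 in *aly* cysts. *betaNACtes4* (FBgn0030566, X:14380351-14381416, protein-coding), a testis NAC subunit, stood at 0.372 in S4, 0 in S8, 58.4 in S16 (55 reads) and 140, 140 and 142 in EC, with the EC libraries almost equal. Its relative *betaNACtes1* stood at 13.9 in S16 (14 reads) and 89.9, 72.6 and 53.9 in EC. In these genes every EC library lay above S16, as in 10 of the 67 members, while the class rule itself placed S8 below S16.

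The 6 members that were higher in EC were *CG12699* (9.82 in S16, 281 in EC), *CG8072* (14.4 and 184), *CG12470* (9.11 and 69.4), *CG8219* (9.58 and 54.5), *betaNACtes1* and the testis ATP synthase subunit *CG7211* (ATPsynGL; 17.9 and 88.5). *CG12699* rests on 7 S16 reads and *CG7211* on 8. *CG12038* (27.4 in S16, 37 reads) stood at 120, 109 and 50.5 in EC, *CG34107* (36.9, 21 reads) at 149, 79.6 and 25.8, and *CG17261* (27.0, 15 reads) at 154, 74.9 and 26.4. For *CG34107* and *CG17261* the S16 value lay inside the EC range. *CalpC*, a calpain relative (8.01 in S16), stood at 31.4 in EC.

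Other members stood high in S16 and lower in EC. *mir-1011* stood at 179 RPKM, but this is 9 reads in 54 bases, and EC held 0, 0 and 17.2. Its coordinates lie within those of *Ir93a*, another member (12.5 in S16, 35 reads, and 0, 0 and 3.99 in EC). Whether the 2 share reads was not tested. *snRNA:7SK*, the RNA of the elongation factor inhibitor complex, stood at 75.7 (32 reads) and 0, 6.80 and 0. The chorion gene *Cp18*, an eggshell protein, stood at 49.7 (30 reads) and 3.80, 1.19 and 0, the neuropeptide gene *IFa* (SIFa) at 35.9 (19 reads) and 1.81 for the EC stage, and *CG7135* at 28.9 (40 reads) and 0.414, 0 and 0.623. *CG15579* stood at 29.6 (12 reads) and at 2.01 in EC but at 97.7 in LC1 and 269 in LC2.

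**Figure D4:**
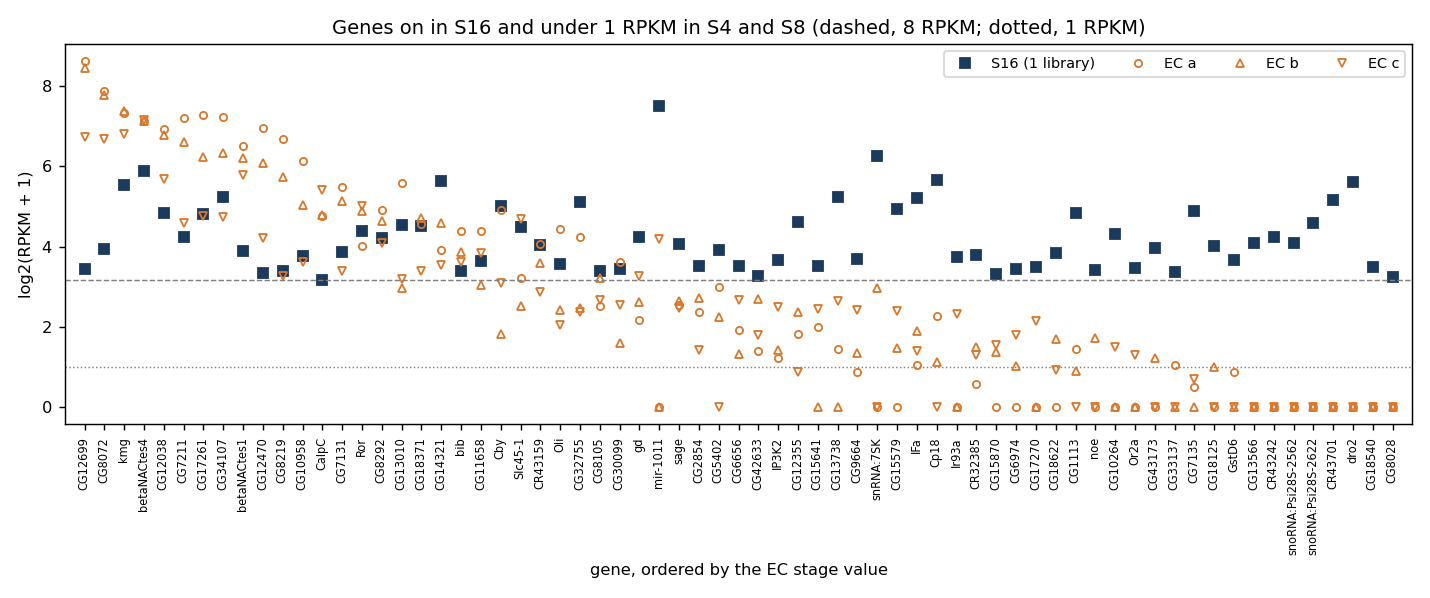
The 67 genes on in S16 and under 1 RPKM in S4 and S8, ordered by their EC stage value (x axis), with log2(RPKM + 1) of the S16 library (squares) and of the EC libraries a, b and c (open symbols). The 26 genes on the left stand at 8 RPKM or more in EC, and the 17 on the right under 1.

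Stages that did not choose these members were read for each of the 3 groups. Of the 26 that stood at 8 or more in EC, 23 stood at 8 or more in LC1, 19 in LC2 and 25 in *aly* cysts, and 16 reached 50 in both LC1 and LC2. Of the 24 at 1 to 8 in EC, 9 stood at 8 or more in LC1, 10 in LC2 and 5 in *aly* cysts, and 4 reached 50 in both LC1 and LC2. Of the 17 under 1 in EC, 1 stood at 8 or more in LC1, 1 in LC2 and 3 in *aly* cysts. Over all genes compared the shares at 8 or more were 69% in LC1, 64.6% in LC2 and 64.1% in *aly* cysts. Non-coding RNAs numbered 1 of the 26, 3 of the 24 and 5 of the 17.

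Genes off in S4 and S8 were then grouped by their S16 value, which is also what chose the class on in S16. Of 3633 genes compared that were under 1 in S4 and S8, 23.6% of those with no S16 read stood at 8 or more in EC, 32.9% of those under 1 in S16, 35.2% of those at 1 to 8 and 26 of the 65 at 8 or more. The median EC value was 2.02, 3.91, 4.97 and 3.60 RPKM in the same order, and the share at 8 or more in LC1 was 59.7, 56.5, 52.8 and 50.8%. Of the 3633 together, 908 stood at 8 or more in EC (24.99%) and 2144 in LC1 (59.01%). The shares over all genes compared were 60.2% in EC and 69% in LC1. Genes seen in 1 spermatogonial library alone were counted for each library, where S4 and S8 libraries have a second library of their stage among the other 4 and S16 has none. At 8 or more in that library and under 1 in each of the other 4 stood 55 genes in S16, 92 and 95 in the S4 libraries and 57 and 53 in the S8 libraries. Of these, 18 stood at 8 or more in EC for S16 (32.7%), 8 and 11 for S4 (8.70 and 11.6%), and 12 and 9 for S8 (21.1 and 17.0%).

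The 812 genes first on in EC were chosen as under 1 RPKM in S4, S8 and S16, and most had no read there. In S16, 1 read in 1 kb is already 1.07 RPKM, so members of 1 kb or less had to be at 0. No read was found in 756 of them in S16, beside 38.6% of all genes compared, and 669 had none in any S4, S8 or S16 library. Of the 756, 744 stood above the floor of 3 S16 reads at their own length in EC and 586 stood at least 4-fold above it. The stage value ran from 8.00 to 199 RPKM with a median of 21.9, and 42 genes reached 100. The last inside were *CG30269* at 8.00 and *CG7669* at 8.02, and the first outside were *CG32437* at 7.99 and *CG7051* at 7.98. In 641 of them (78.9%) the table gives only a CG or CR number as symbol.

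The highest members were *ocn*, *CG13597* (tbrd-1), *CG1690* (236, 186 and 83.0 in EC a, b and c), *CG12674* (244, 174 and 72.7), *CG2861* (241, 172 and 74.0), *CG10887* (205, 174 and 105) and *wuc*. They were followed by *CG34168* (238, 150 and 68.0), *CG31226* (194, 169 and 58.4), the protein phosphatase *Ppm1* (222, 142 and 43.1), *CG10931* (181, 140 and 78.5) and *CG4438* (213, 140 and 44.2). All 12 were highest in EC a and lowest in EC c. Of these only *CG2861* had an S16 read, a single one.

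In stages the rule did not use, most members stood higher still. LC1 and LC2 were both above EC in 712 of the 812 (87.7%), with medians of 186 in LC1 and 245 in LC2. All genes compared had medians of 18.6 in EC, 26.5 in LC1 and 20.9 in LC2. Their shares with both late stages above or below EC were not counted. In 65 (8.00%) both were below EC, among them *CG2861* (135 in LC1 and 39.5 in LC2), *CG10887* (100 and 86.0), the kinase *Pk34A* (122 in EC, 91.7 and 76.7) and *aly* (64.4 and 51.0). In GB 39 of the 812 (4.80%) stood at 8 or more, beside 49% of all genes, and in niche 21, beside 48.5%. In *aly* mutant cysts 685 stood at 8 or more (84.4%, beside 64.1% of all genes), with a median of 42.5, and 15 stood under 1. Of those, *CG7848* stood at 21.8 in EC, 0.928 in *aly* cysts and 231 in LC1. The limit of 1 read per base differed between these stages, at 387 RPKM for LC1, 546 for LC2 and 248 for *aly* cysts beside 772 for EC. Its part in these levels was not tested.

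Between the classes lay 70 genes under 1 in S4 and S8, at 1 to 8 in S16 and at 8 or more in EC, 57 of which were higher in EC. The highest were *CG9975* (fest), *CG5389* (ATPsynbetaL), the phosphatase subunit *Pp1-13C* (6.82 in S16, 170 in EC) and the testis thioredoxin *TrxT* (2.91 and 160). The median member had 3 S16 reads. On the X lay 23.4% of the annotated genes on in S16, 19.6% of those first on in EC and 15.6% of all genes compared. Protein-coding genes made up 95.5% of the annotated genes first on in EC and 96.1% of all annotated genes compared.

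The 3 EC libraries were not equally far from S16. On the log2(RPKM + 1) scale, Pearson's r with S16 was 0.849 for EC c, 0.782 for b and 0.740 for a, computed across 12792 genes that are no independent replicates, and r with the largest LC1 library was 0.534, 0.678 and 0.674. Genes first on in EC had medians of 7.41 RPKM in c, 21.7 in b and 37.7 in a. They were lowest in c in 720 of 812 (88.7%, beside 34.6% of all genes) and followed the order a above b above c in 624 (76.8%, beside 23.5%). EC a was at least 4 times EC c in 503. The 3 libraries shared in choosing these members. At 8 or more in each of the 3 stood 353 of the 812, and without EC c the class held 904 genes.

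Examples at the 2 ends of that order were picked after their values were seen. *I-t* stood at 47.3 in a, 29.9 in b and 0 in c, *CG34459* at 62.9, 17.5 and 0.876, and *CG5342* at 59.3, 23.2 and 0.357, while 40 members stood under 1 in c. In 15 members c was the highest, led by *CG14306* (47.7, 64.3 and 84.0), *CG9170* (Cep164; 35.2, 41.9 and 44.6) and *CR42842* (22.4, 28.1 and 30.9). All 3 stood lower in both LC1 and LC2 than in EC. Not all of the 15 did, as *Cct2* stood at 18.5 in EC, 184 in LC1 and 251 in LC2, and *Fbp2* at 12.9, 11.8 and 140.

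The gene lists also differed along these libraries, and some of their members are among the genes first on in EC (16 of the 29 sperm genes, 3 of the 9 tMAC subunits, 3 of the 8 testis TAFs and partners and 2 of the 8 testis respiratory paralogues). All 13 general respiratory chain genes, 10 of 11 general proteasome genes and 14 of 15 ribosome biogenesis genes were highest in EC c, beside 35.0% of all genes. The growth regulator *dm* (Myc) stood at 34.7 in S16 and 53.5 in c, 12.3 in b and 1.60 in a. *Nop60B*, a snoRNP subunit, stood at 199 in S16 and 128, 52.2 and 18.9 in c, b and a, and *nos*, the germline translational repressor, at 10.5 and 83.0, 36.5 and 8.94. For *dm* the S16 value lay within the EC range, and the stage difference was -0.61. On the other side 8 of 9 tMAC subunits, all 8 testis TAFs and bromodomain partners, 26 of 29 sperm genes and all 8 testis respiratory paralogues were lowest in c. The 1-read-per-base limit also runs from c (928) through b (772) to a (617), which bears on the general genes with high RPKM. Depth also differed between the libraries, and the part of the limit and of depth in the order was not tested.

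**Figure D5:**
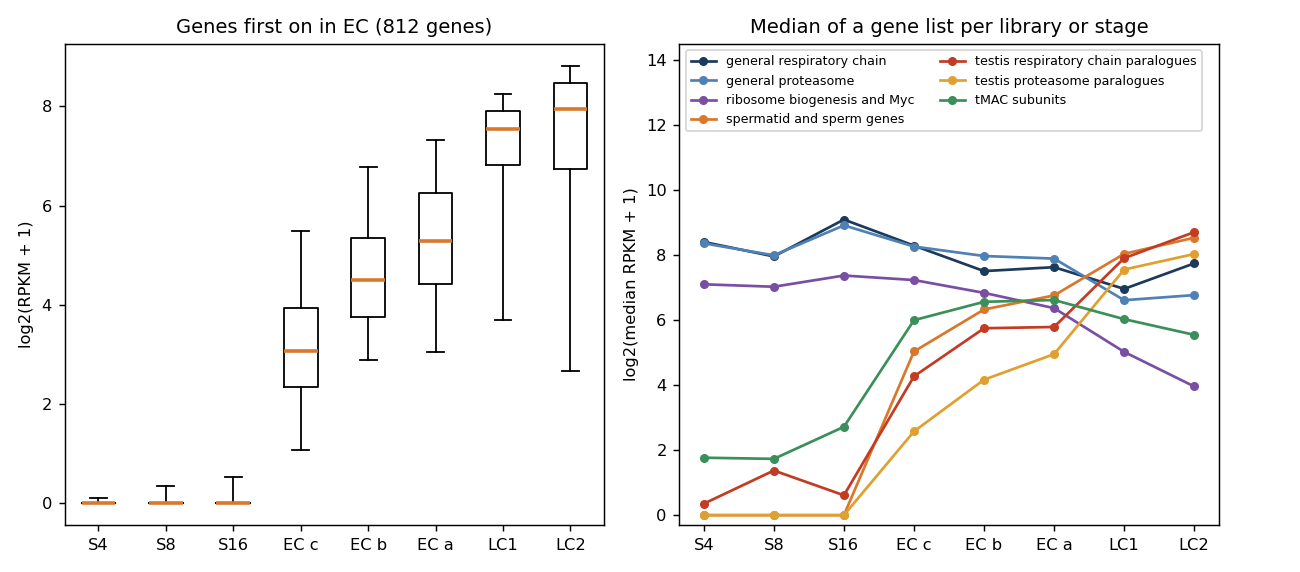
Left, log2(RPKM + 1) of the 812 genes first on in EC by stage or library (box, quartiles and median; whiskers, 5th to 95th percentile), with medians of 7.41, 21.7 and 37.7 RPKM in EC c, b and a. Right, the median RPKM of 7 gene lists, as log2 of the median plus 1, is lower in all 3 EC libraries than in S16 for the general lists and higher in LC2 than in EC for the testis respiratory and proteasome paralogues and sperm genes.

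Markers of other cell types included a few genes that were 4-fold apart, beside 24% higher and 3.58% lower over all genes compared. Of 6 cyst cell markers, genes of the somatic cells around each cyst, 0 were higher and 0 lower. Their summed level was 51.2 RPKM in S16 and 70.0 in EC, with *tj* at 10.5 in S16 and 1.36, 5.34 and 16.9 in EC and *Amph* at 30.8 and 25.9, 34.2 and 49.4. All 6 were highest in EC c. Of 5 hub markers 1 was higher, *shg* (0.596 and 8.48), with *os* (upd1) at 0 and 0.397. Of 10 muscle sheath markers 1 was lower, *Mlc2* (14.6 and 1.85), and 1 higher, *Act87E* (0 and 6.08), and *TpnC47D* and *Mlc1* were at 0 in all 4 libraries. Of 7 haemocyte and fat body genes *Lsp2* (0 and 16.1) and *Fbp1* (0 and 9.36) were higher and the yolk protein gene *Yp3* (33.2 and 4.29) lower. All 8 gut markers were at 0 in S16 and at most 0.349 in EC. Among heat shock genes 2 of 11 were higher, *Hsp60B* (0 and 20.7) and *Hsp60C* (0.497 and 91.7), and 1 lower, *Hsp22*. The part of these cells and of stress in the differences was not tested.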

How the data were processed

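The authors deposited 1 table of RPKM values per stage, written cRPKM in its title line, per the file headers, with no meaning given for the c. Bowtie 0.12.7 and edgeR appear in the submitters' processing notes without a stated role. The build and annotation used for counting, and any treatment of duplicates, are not stated there. Each stage value is a mean over libraries of whole reads divided by gene length and an effective library size. Whole reads per library were recovered for 12792 of 12810 genes, within 1e-08 of a whole number, in 20 libraries (the LC2 mean held 3, although 2 are labelled). The recovery was tested on simulated data. Differences are log2(RPKM + 1), EC minus S16, a scale that understates differences of low genes. A planned limma 3.58.1 fit with Benjamini-Hochberg adjustment was not used for calls, since over 5% of its calls were false in simulated libraries. Floors are 3 reads in S16 at the gene's length. Coordinates are those of Ensembl BDGP6.54, in which 12208 identifiers matched. The genes, classes, 26 lists and naming rule (the markers, the 12 largest differences in each direction, the 15 and 12 highest members of the classes, up to 4 members per list and those at the ends of a range, and the genes at each threshold) were chosen with earlier results of these data known. Exceptions are said to be so, or belong to an account of a small count. Alternatives covered pseudocount, filter, scaling, thresholds and left-out EC libraries. Promoter sequences were not used here.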

Additional observations from a re-analysis of the deposited data

Results flagged for a closer look

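Signal in stages outside the comparison was found in both classes. Of the genes first on in EC, 39 stood at 8 RPKM or more in GB and 21 in niche. In 32 of the 39 one GB library was at 0, and 3 reached 8 in both. *CG42688* stood at 148 and 0 in the GB libraries and *Ppm1* at 39.5 in the GB mean, while *aly* stood at 22.3 and 42.2 in GB libraries a and b. Of the genes on in S16, 10 stood at 8 or more in GB and 8 in niche, among them *betaNACtes4* (19.0 and 117 in GB a and b), *CG5204* (kmg; 0 and 33.4) and *CG12699* (56.8 and 0). *Rbp4* likewise stood at 0 and 62.1. Over all genes compared, 49% stood at 8 or more in GB and 48.5% in niche. The cause of these values was not tested.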

How the results depend on the processing

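The counts of 2837 higher and 423 lower genes became 4719 and 516 with a pseudocount of 0.1, 1319 and 242 with one of 5, 5074 and 1474 at 2-fold, 2408 and 683 when scaled to total recovered reads, and 1317 and 1018 after quantile scaling. Leaving out 1 EC library gave 2740 to 2953 higher and 390 to 554 lower. The 67 genes on in S16 became 122 with on at 4, 29 with on at 16 and 124 after quantile scaling. The 812 first on in EC became 517 with on at 16 and 353 with at least 8 in each EC library, and 689 to 904 without 1 EC library. For both classes, total-read and quantile scaling were chosen after seeing the data, as was leaving out EC libraries for the lists. The limma fit, not used for calls, passed 1612 higher and 242 lower genes, 445 lower when scaled to total reads, 903 higher and 555 lower after quantile scaling, and 1338 to 1716 higher and 171 to 298 lower without 1 EC library. The differences of 45 named genes kept their direction in every alternative run, and 3 of them (*CG14321*, *CG32755*, *Cby*) passed 4-fold lower in some. Many of the 45 were chosen by their S16 and EC values, and no alternative replaced the single S16 library. A kept direction is therefore no independent check. The number of lists with a median above that of all genes was 14, 13 and 17 after total-read and quantile scaling, and 13 to 15 without 1 EC library. Medians that changed sign were those of cohesion (-0.12 with total reads, -0.09 with quantiles), tubulins (-0.39 with total reads), heat shock genes (0.37 with quantiles, 0.14 without EC b), the general proteasome (0.04), the *bam* programme (-0.40), and cyst cell (-0.84) and hub (-0.28) markers with quantiles, and tubulins without EC c (-0.10). The median of the muscle markers went from 0 to -0.70 with quantiles. The cause was not tested. No paired analysis was possible because S16 has 1 library and the recovered libraries carry no replicate number. The promoter description was not run. Depth limits S16 most: with 1 library, a gene at 0 there may by counting error alone lie anywhere below 3.22 RPKM at 1 kb. That floor covers nothing beyond counting error, and a 0 can stand beside high values. *CG14870* stood at 0 in S16 and S8 a, at 201 in S8 b and at 232, 204 and 185 in EC a, b and c.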
